A study of Homo sapiens with 3 samples.

Results

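The cytosolic ribosomal protein genes encode the proteins that, with ribosomal RNA, make up the ribosome of the cytoplasm. They were chosen by gene name: RPL or RPS with a number and at most a suffix of A, L, X or Y1, plus RPLP0, RPLP1, RPLP2, RPSA and FAU, with pseudogenes left out. The rule took 85 of 55827 gene names, 49 of the large and 36 of the small subunit. Of these, 78 encode standard ribosomal proteins and 7 are paralogs or copies, such as RPL3L, RPL10L, RPL39L and RPS27L. RACK1 (listed as GNB2L1), which also encodes a ribosomal protein, falls outside the rule and is given beside it. A mean level over the libraries of at least 1 FPKM (fragments per kilobase of transcript and of mapped fragments in the library) was reached by 81 members, 47 of the large and 34 of the small subunit. The other 4 were RPL10L and RPL3L, at up to 0.282 FPKM in any library, and RPS4Y1 and RPS10L, listed at 0 in every library.

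PLC, an established line of human hepatocellular carcinoma, was grown in DMEM with 10% FBS, and total RNA was taken 48 hours after infection with viruses that carry short hairpin RNAs. There were 3 libraries: control, which received a non-targeting hairpin, shDIS3L2, with hairpins against the exoribonuclease DIS3L2, and shHNRNPU, with hairpins against the nuclear RNA-binding protein hnRNP U. Each group was 1 library with no replicate, so no difference below has a test. The interval after each value is the one deposited with it, taken as 95%, and covers the estimate in that library only, not the spread between cultures. The title of the study names both proteins, and here the question was how the ribosomal protein genes stood when either was reduced.

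Ribosomal proteins are needed in near equal amounts, and their messenger RNAs are among the most abundant of growing cells. Most of these messengers begin with a cytosine followed by a run of pyrimidines, the 5′ terminal oligopyrimidine (TOP) tract, through which mTOR signalling and LARP1 control their translation and stability. Proteins that are not assembled into subunits are degraded, and RPL5 and RPL11 enter the large subunit as a particle with 5S RNA.

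To show that start, 30 bases around the annotated start of transcription are printed for 9 members named below, 10 before the start and 20 from it on. The choice does not show how often a tract occurs. RPL9 and RPS27L, also named below, are not printed and have no tract at the annotated start. They come from RefSeq on GRCh38.p14, a later build than the hg19 of the deposited loci, and capitals mark the unbroken run of pyrimidines from the annotated start. The first 6 begin with a tract.
RPLP2 (chr11:809957-809986, plus strand): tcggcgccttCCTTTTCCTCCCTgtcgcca
RPL22 (chr1:6199576-6199605, minus strand): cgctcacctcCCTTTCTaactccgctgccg
RPL34 (chr4:108620566-108620595, plus strand): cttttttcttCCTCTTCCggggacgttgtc
RPL38 (chr17:74203668-74203697, plus strand): aagtctcgttCTTTTTCgtccttttccccg
RPS12 (chr6:132814559-132814588, plus strand): cggatgaggcCTCTTTCCCTgccgccgccg
RPL35 (chr9:124861938-124861967, minus strand): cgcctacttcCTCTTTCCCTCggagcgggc
RPL17 (chr18:49492446-49492475, minus strand): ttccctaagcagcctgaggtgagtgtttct
RPS27A (chr2:55231893-55231922, plus strand): agtgacacacaagacccagactcttcccta
RPS4X (chrX:72277229-72277258, minus strand): ctccagccccaatttctacgcgcaccggaa

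Promoter entries existed for 64 of the 81 members with a mean of at least 1 FPKM. A cytosine and 4 further pyrimidines, on the strand of the gene, lay exactly at the annotated start in 43 of them (67.2%), against 1104 of 27303 promoters (4.04%). With 5 bases of tolerance either side the shares were 79.7% and 21.1%. The letters CCGGAAG, on either strand of the 300 bases from 250 before the start to 50 after it, stood in 34.4% of these members and 10.7% of all promoters, and TCGCGAGA in 17.2% and 1.19%. GCCATCTT was found in 10.9% against 3.03%, and TATAAA in 7.81% against 12%. Overlaps between motifs were not removed, and a match is a description of the sequence only.

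The targeted genes stood lowest in their own libraries: DIS3L2 at 7.61, 3.23 and 11.2 FPKM and HNRNPU at 178, 232 and 33.5 FPKM in control, shDIS3L2 and shHNRNPU. Depth, estimated from genes whose lowest values equal 1 fragment, was about 22600000, 18400000 and 20100000 fragments. All 3 libraries held hepatocyte and epithelial markers, and those of fibroblasts, endothelium, leukocytes and red cells found in the tables were each under 1 FPKM in all 3. Of 10 hepatocyte markers, 10, 9 and 10 were at 1 FPKM or above, with summed levels of 13211, 3242 and 7854 FPKM, led by SERPINA1. The 5.8S ribosomal RNA gene RNA5-8S5 held 54.0%, 68.7% and 72.5% of all FPKM. The part of either in the differences below was not tested, and in bulk RNA fewer cells of a type and less RNA per cell cannot be told apart.

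In control, the 78 standard members had a median level of 1896 FPKM, with quartiles of 1386 and 2925 FPKM. The median was 2207 FPKM in shDIS3L2 and 1608 FPKM in shHNRNPU. The lowest and the highest of the 78 were 22.8-fold apart in control, 26.9-fold in shDIS3L2 and 31.2-fold in shHNRNPU, with a coefficient of variation of 74.7%, 77.8% and 77.6%. Across these 78 genes the log2 level in control had a Pearson correlation of 0.93 with that in shDIS3L2 and of 0.92 with that in shHNRNPU. The last 2 libraries had 0.88 with each other. These are descriptions across genes, which are not independent.

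Members supplied 62, 66 and 53 of the 100 highest protein-coding loci in control, shDIS3L2 and shHNRNPU. Summed over all 85, their level was 199012, 226991 and 167830 FPKM, and the large subunit stood at 1.11, 1.12 and 1.10 times the small one. As a share of all FPKM in the library this was 10.4%, 7.55% and 4.72%, a total that the short 5.8S RNA dominates. Among loci that carry a protein-coding name, a denominator chosen after seeing the data, the shares were 26.1%, 27.4% and 22.6%. The order of control and shDIS3L2 thus turned with the denominator, while shHNRNPU was lowest by both.

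The highest member in control was RPS29, a zinc-binding protein of the small subunit head encoded by 168 coding bases, at 10248 FPKM (9793 to 10702). The next 4 were RPL35 at 7963 FPKM (7626 to 8301), RPL41 at 7613 (7290 to 7935), RPS27 at 7486 (7160 to 7812) and RPS21 at 7412 (7088 to 7735), whose intervals overlap one another. At the low end of the standard set stood RPL22 at 449 FPKM (430.2 to 468) and RPS28 at 466 (445 to 487), which also overlap. The paralogs expressed at lower levels were RPS27L at 139 FPKM and RPL39L at 50.9 FPKM, against 7486 for RPS27 and 2951 for RPL39. RPL3L and RPL10L, whose relatives RPL3 and RPL10 were at 1360 and 6222 FPKM, stayed below 1 FPKM, as did RPS4Y1 beside RPS4X.

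**Figure D1:**
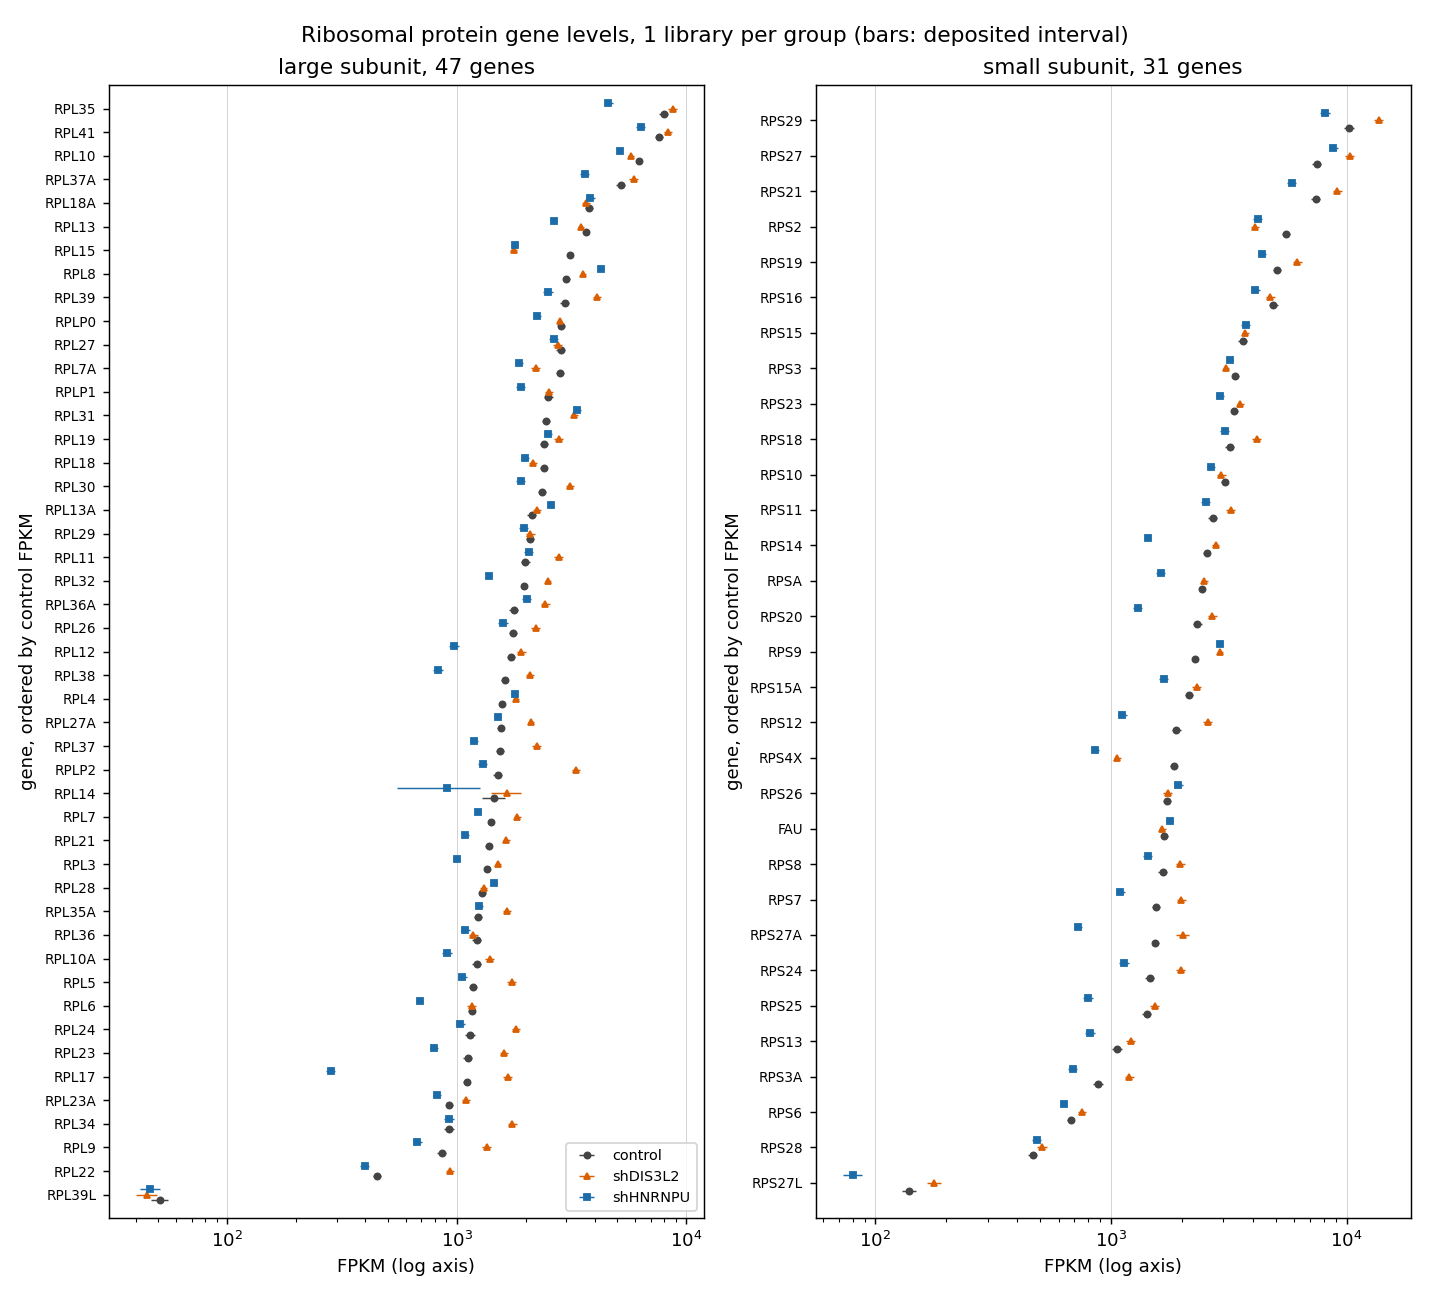
FPKM (log axis) of 47 large and 31 small subunit genes with a mean of at least 1 FPKM, with circles for control, triangles for shDIS3L2, squares for shHNRNPU and bars for the deposited interval. Triangles lie mostly to the right and squares mostly to the left, and the square of RPL17, at 282 FPKM, lies farthest from its circle.

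The highest of the 3 libraries was shDIS3L2 for 58 of 81 members, control for 15 and shHNRNPU for 8. Over all 11790 loci with a mean of at least 1 FPKM these shares were 36.4%, 23.7% and 39.9%. Over the 1371 loci at a mean of 100 FPKM or more they were 41.9%, 24.4% and 33.7%. The lowest library was shHNRNPU for 60 members, control for 15 and shDIS3L2 for 6, against 28.5%, 39.0% and 32.5% of all loci. Of the loci at 100 FPKM or more the shares were 32.4%, 34.9% and 32.7%. A member's deposited interval reached a median of 4.24%, 4.29% and 4.33% of its value to either side. RPL14 was the least precise, with 39.4% in shHNRNPU.

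Several limits touch single members. Cufflinks joined 35 members with a second name in 1 locus, 11 of them with another protein-coding gene (such as RPL17 with C18orf32, FAU with SYVN1 and RPS13 with PIK3C2A). The assembled bounds of 7 members with a mean of at least 1 FPKM differed between libraries (RPL4, RPL6, RPL15, RPL32, RPS4X, RPS15 and RPS19). A set of 42 tested members had 1 name and the same bounds throughout, and its counts are given beside each comparison.

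Knockdown of DIS3L2 was compared with control first. Most members stood slightly higher: 64 of 81 had a log2 ratio above 0, and the median log2 ratio (of FPKM + 1, as throughout) was 0.20, against 0.09 over all 11790 loci. The size rule asked for a log2 ratio of 1 or more in either direction, deposited intervals that do not overlap and a status of OK in both libraries. By that rule 2 of 81 members were called higher and 0 lower, where 8.95% of all loci were higher and 7.57% lower. The shares were 7.41% and 5.70% over loci above 0 in both libraries, and 6.35% and 7.00% over the 1371 loci at a mean of 100 FPKM or more. By intervals alone, whatever the fold, 52 members stood higher in shDIS3L2, 8 lower and 21 overlapped, against 32.7% higher and 25.3% lower of all loci, or 44.1% and 33.0% of the loci at 100 FPKM or more. Among the 42 members with 1 name and the same bounds, 30 had higher intervals and 1 a lower one. After median-of-ratios rescaling the members' median was 0.09 and their intervals were 38 higher and 17 lower, against 27.4% and 29.3% of all loci.

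The large subunit had 31 of 47 intervals higher and 4 lower, with a median log2 ratio of 0.21. The small subunit had 21 of 34 higher and 4 lower, with a median of 0.17. RPLP2, an acidic protein of the flexible stalk that recruits the translation factors with GTPase activity, stood at 1505 FPKM in control (1439 to 1571), 3306 in shDIS3L2 (3175 to 3437) and 1294 in shHNRNPU (1237 to 1352). It was high in shDIS3L2 alone, and its log2 ratio to control was 1.13 (hg19, chromosome 11, 809647 to 812880, with SNORA52 in the locus). The other stalk genes did not share that size. RPLP0, the base of the stalk, stood at 2849 FPKM in control and 2801 in shDIS3L2, and RPLP1, the partner of RPLP2, at 2507 and 2526. Both pairs of intervals overlapped. RPL12, beside the stalk base, was at 1723 and 1909 FPKM, a log2 ratio of 0.15.

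RPL22, a large subunit protein dispensable in most tissues but needed in T cell development, was the other member called higher. It stood at 449 FPKM in control (430.2 to 468), 934 in shDIS3L2 (896 to 971) and 397 in shHNRNPU (380 to 414), with none of these intervals overlapping (hg19, chromosome 1, 6241329 to 6269449). Its log2 ratio of 1.05 was 0.95 after rescaling and 0.81 when centred on genes of like coding GC content, so both ended the call. Its paralog RPL22L1, outside the name rule, stood at 103, 121 and 69.9 FPKM, the same order of libraries with a smaller ratio (0.23). RPL34, at 922 FPKM in control (875 to 969) and 1747 in shDIS3L2 (1663 to 1830), missed the fold with 0.92. RPL24, which bridges both subunits, followed with 0.66, RPL9 with 0.65 and RPL17 with 0.60.

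At the other end, RPL15, a core large subunit protein, stood at 3098 FPKM in control (3016 to 3180), 1773 in shDIS3L2 (1712 to 1834) and 1797 in shHNRNPU (1745 to 1848). It was high in control alone, with a log2 ratio of -0.80, but the locus assembled in control began at 23939515 on chromosome 3 of hg19 and in both other libraries at 23958036, so these values may not cover the same transcripts. RPS4X, whose gene lies on the X chromosome and has the Y-linked relative RPS4Y1, stood at 1843 FPKM in control (1787 to 1899) and 1064 in shDIS3L2 (1029 to 1098), a log2 ratio of -0.79, with bounds that differed by 16 bases at 1 end. RPS2, at the mRNA entry channel, was at 5540.4 and 4095 FPKM (-0.44) and RPL7A at 2819 and 2205 (-0.35). RPL10, RPL18 and RPS3 also had lower intervals.

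By place in the ribosome, all 9 genes of the peptide exit tunnel and its rim (RPL4, RPL17, RPL39, RPL19, RPL22, RPL23A, RPL26, RPL31 and RPL35) had intervals higher in shDIS3L2, with a median of 0.33 and a range of 0.13 to 1.05. For this and the next groups, 64.2% of all members' intervals were higher and 9.88% lower. Over loci at 100 FPKM or more the shares were 44.1% and 33.0%. Of 5 genes on the mRNA entry and decoding side of the small subunit (RPS2, RPS3, FAU, RPS23 and RPS15), 0 were higher and 2 lower, with a median of -0.03. Coding GC content, described below, ran from 42.5% (RPL39) to 57.2% (RPL35) in the tunnel genes. In the entry side genes it ran from 45.5% (RPS23) to 63.0% (RPS15), and its part in this contrast was not tested. RPL5 and RPL11 of the 5S particle stood higher with log2 ratios of 0.56 and 0.48. RPL5 was at 1176 FPKM in control (1125 to 1227) and 1735 in shDIS3L2 (1661 to 1810). Of 16 genes mutated in Diamond-Blackfan anaemia, 12 intervals were higher and 1, that of RPL15, lower (median 0.34). RPS6, the substrate of S6 kinase, was at 675 and 755 FPKM (0.16).

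Knockdown of HNRNPU was then compared with the same control library. Here most members stood lower: the median log2 ratio was -0.25, against 0.12 over all loci. By the size rule 0 of 81 members were higher and 3 lower (RPL17, RPS4X and RPS27A), where 8.32% of all loci were higher and 7.46% lower. Of loci above 0 in both libraries 6.91% and 5.53% were, and of those at 100 FPKM or more 4.67% and 5.32%. By intervals alone 9 were higher, 56 lower and 16 overlapped, against 34.9% and 23.5% of all loci and 37.7% and 35.2% of loci at 100 FPKM or more. The 42 members with 1 name and the same bounds had 6 higher and 26 lower. Rescaling, which took the median of all loci from 0.12 to 0.00, gave a median of -0.41 and intervals of 4 higher and 66 lower, against 27.1% and 29.8%. The large subunit had 32 of 47 lower and 6 higher (median -0.24) and the small one 24 of 34 lower and 3 higher (median -0.27).

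RPL17, which lines the peptide exit tunnel, had the lowest ratio of all members. It stood at 1102 FPKM in control (1064 to 1140), 1671 in shDIS3L2 (1597 to 1746) and 282 in shHNRNPU (268 to 295). The 3 intervals are far apart and the level in shHNRNPU was 0.256 of that in control (log2 ratio -1.96). The locus (hg19, chromosome 18, 47008028 to 47018906) carries 552 coding bases of RPL17 and 3 C/D box small nucleolar RNAs (SNORD58A, SNORD58B and SNORD58C), and is joined with C18orf32, so the value is that of the joined locus. It was by far the lowest of the tunnel genes, the other 8 of which lay between -0.80 for RPL35 and 0.46 for RPL31.

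RPS27A is made as a fusion with ubiquitin, from which the ribosomal protein is cleaved. It stood at 1545 FPKM in control (1494 to 1596), 2017 in shDIS3L2 (1889 to 2146) and 728 in shHNRNPU (701 to 755), a log2 ratio to control of -1.08 (hg19, chromosome 2, 55459039 to 55462989, 1 name and the same bounds). FAU, made as a fusion with a ubiquitin-like protein, had another ratio: it was at 1684, 1651 and 1774 FPKM, with an interval in shHNRNPU that overlapped that of control. RPS4X stood at 1843 FPKM in control, 1064 in shDIS3L2 and 859 (831 to 886) in shHNRNPU. It was low in both knockdown libraries, with a log2 ratio of -1.10 here (hg19, chromosome X, 71475529 to 71497150 in control).

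Next in order were RPL38, whose loss in mice disturbs the axial skeleton, at 1616 FPKM in control and 832 (791 to 873) in shHNRNPU (-0.96), RPS20 at 2323 and 1299.9 (-0.84) and RPS25 at 1415 and 799.6 (-0.82). RPL12, RPS14 and RPL35 also stood near -0.8. RPL35, among the 5 highest members in control, was at 4576 FPKM (4376 to 4775) in shHNRNPU. All 4 stalk genes had lower intervals, from -0.22 for RPLP2 and -0.35 for RPLP0 to -0.82 for RPL12. On the mRNA exit side of the small subunit 3 of 5 intervals were lower and 1 higher (median -0.28). There RPS14 was at 2544 FPKM in control and 1441 in shHNRNPU, and RPSA, also known as a laminin receptor, at 2442 and 1624. RPS26, of the same side, stood higher at 1728 and 1934 FPKM (0.16), and RPS28 overlapped at 466 and 484 (0.05). On the mRNA entry side 2 of 5 were lower and 0 higher. Among Diamond-Blackfan anaemia genes 9 of 16 were lower and 3 higher (median -0.15), and RPL11 (0.05) and RPS6 (-0.10) had intervals that overlapped control. Beside these groups, 69.1% of all members' intervals were lower and 11.1% higher.

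The 9 members with higher intervals were RPL4, RPL8, RPL13A, RPL28, RPL31, RPL36A, RPS9, RPS26 and RPS27. RPL8, which reaches the peptidyl transferase centre, was at 2999.7 FPKM in control (2901 to 3098), 3555 in shDIS3L2 (3457 to 3654) and 4242 in shHNRNPU (4127 to 4358), highest in shHNRNPU with a log2 ratio of 0.50. RPL31 was at 2444, 3252 and 3352 FPKM (0.46) and RPS9 at 2274, 2913 and 2901 (0.35). RPL13A, also a component of the GAIT complex that silences inflammatory messengers, was at 2115, 2238 and 2564 FPKM (0.28), and RPS27 followed with 0.23. RPL4, RPL13A and RPL36A are joined with another protein-coding gene, and the bounds of RPL4 differed between libraries.

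**Figure D2:**
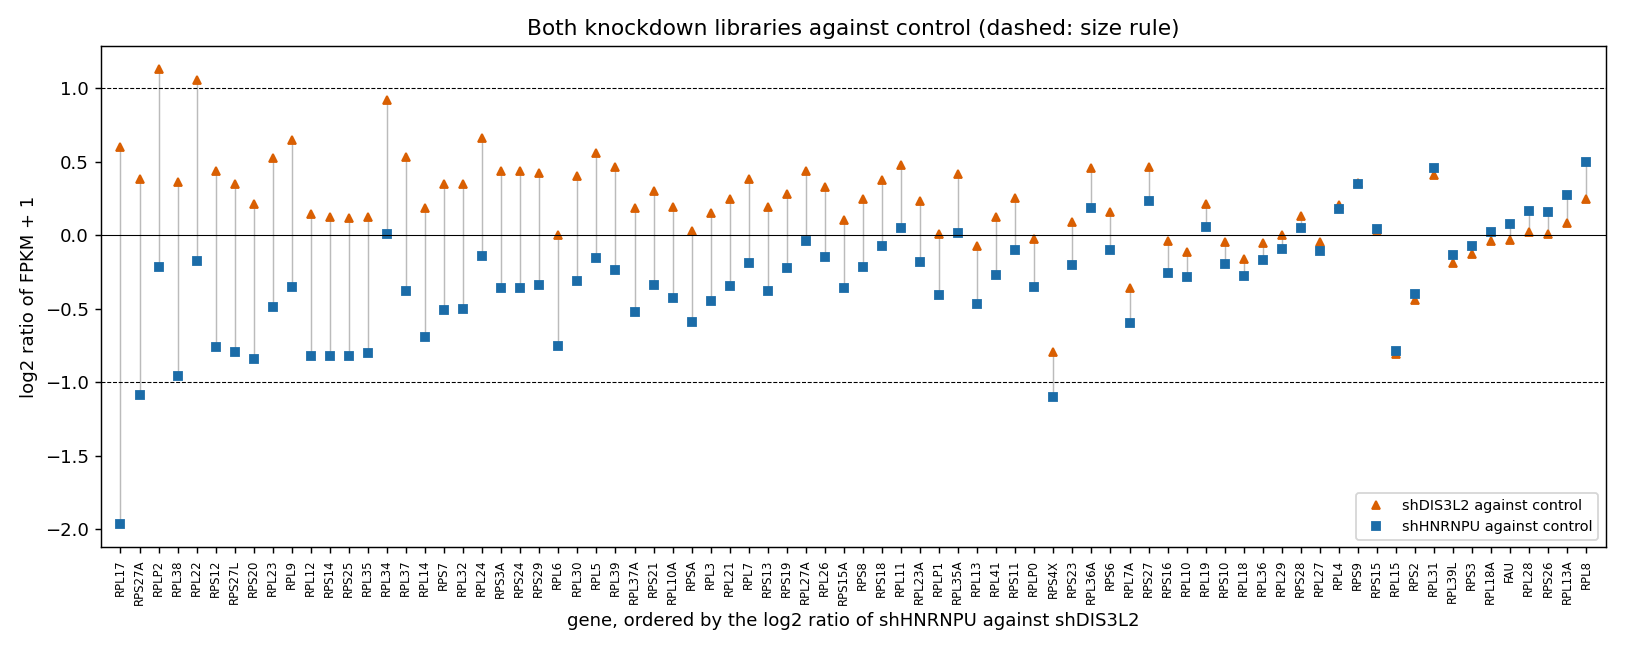
Log2 ratio of FPKM + 1 to the shared control library for 78 of the 81 members, with triangles for shDIS3L2, squares for shHNRNPU, a line joining both values of a gene and dashed lines at the size rule of 1 and -1. RPLP2 and RPL22 lie above the upper line, and RPL17, RPS27A and RPS4X below the lower one.

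Because both knockdowns were set against 1 control library, they were also compared directly. In shHNRNPU against shDIS3L2 the median log2 ratio of members was -0.45, against 0.03 over all loci. By the size rule 0 of 81 members were higher and 10 lower, where 10.2% of all loci were higher and 10.5% lower. Of loci above 0 in both libraries 8.65% and 8.76% were, and of those at 100 FPKM or more 7.80% and 8.68%. By intervals 5 were higher, 62 lower and 14 overlapped, against 31.8% and 28.4% of all loci and 38.7% and 41.6% of loci at 100 FPKM or more. The 42 members with 1 name and the same bounds had 3 higher and 32 lower. After rescaling, all 81 members had 3 higher and 64 lower, against 30.0% and 30.1% of all loci. The large subunit had 36 of 47 lower (median -0.47) and the small one 26 of 34 (median -0.40).

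The 10 called lower, from the largest ratio down, were RPL17 (-2.56), RPS27A (-1.47), RPLP2 (-1.35), RPL38 (-1.32), RPL22 (-1.23), RPS12 (-1.20), RPS27L (-1.14), RPS20 (-1.05), RPL23 (-1.02) and RPL9 (-1.0). RPS12, in the beak of the small subunit, stood at 1897 FPKM in control (1814 to 1980), 2577 in shDIS3L2 (2464 to 2689) and 1119 in shHNRNPU (1067 to 1171). Control lay between both knockdowns for it. The same held for RPS27L, a relative of RPS27, at 139 (129.6 to 149), 177 (165 to 189.7) and 80.1 FPKM (72.6 to 87.5). RPS27 itself was at 7486, 10341 and 8795 FPKM, lowest in control. RPL39L, a paralog of RPL39 known from testis, was at 50.9, 44.6 and 46.2 FPKM with overlapping intervals, while RPL39 was at 2951, 4083 and 2503. RPL23, of the large subunit, was at 1118, 1612 and 797 FPKM, and RPL9 at 859, 1348 and 673. RPL9 has 14 pseudogenes in the tables, whose summed level was 15.3%, 13.7% and 19.8% of its own, so some of its reads may lie there.

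Members higher in shHNRNPU were RPL8 (0.25), RPL13A (0.20), RPS26 (0.15), RPL28 (0.15) and FAU (0.10). All 11 members called in any comparison are accounted for by these 10 and RPS4X, whose ratio here was -0.31. In the role groups, the 4 stalk genes were all lower by interval (median -0.69), the tunnel genes in 7 of 9 (-0.47) and the entry side genes in 1 of 5, with 1 higher (0.04). Of all members' intervals 76.5% were lower and 6.17% higher. Both RPL5 (-0.71) and RPL11 (-0.43) were lower.

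Members whose annotated start carries a tract were set beside those with another start. In shDIS3L2 against control the medians were 0.19 over 43 and 0.20 over 21 genes. In shHNRNPU against control they were -0.22 and -0.43, and in the direct comparison -0.47 and -0.43. The 21 are a mixed group, since some (such as RPL3, RPL4 and RPL11) have a tract within 5 bases of the annotated start. Of the 64 members with a promoter entry, 51 had one within that distance. The medians thus compare exact annotated starts, not members with and without a tract. Both members called higher in shDIS3L2 have the tract at the annotated start, and the 3 called lower in shHNRNPU do not, as the sequences above show. For RPL17, which is joined with C18orf32, the annotated start may not be that of its main transcript, so its lack of a tract is less certain. Of the 10 called lower in the direct comparison, 4 have it, 4 do not and 2 (RPS20 and RPL23) were without a promoter entry. A run that is not at the annotated start says only that these letters are not in that place.

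Small nucleolar RNAs, which guide the modification of ribosomal RNA, lie in introns of many members, and 29 of the 81 held at least 1 in their locus. These 29 had medians of 0.25 in shDIS3L2 and -0.36 in shHNRNPU against control, and the 52 without had 0.17 and -0.19. In the direct comparison the medians were -0.60 and -0.37, with 24 of 29 (82.8%) and 38 of 52 (73.1%) lower by interval. Beside these, 76.5% of all 81 members were lower, 28.4% of all loci and 41.6% of loci at 100 FPKM or more. Whether the 29 differ from the 52 was not tested.

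The coding GC content of members ran from 42.1% to 63.0%, and the log2 ratios varied along it. In shDIS3L2 against control Spearman's rho over the 81 members was -0.53, and the medians of the 27 members lowest, 27 between and 27 highest in GC were 0.39, 0.20 and 0.01. Of the 27 lowest in GC, 22 (81.5%) had higher intervals and 0 lower ones, and of the 27 highest, 10 (37.0%) and 5 (18.5%). Of all loci 32.7% were higher and 25.3% lower, and of loci at 100 FPKM or more 44.1% and 33.0%. Other genes with a mean of at least 100 FPKM (1144 with a coding sequence) had a rho of -0.33. Split by their own GC into 381, 381 and 382 genes, they had medians of 0.29, 0.01 and -0.10. Their groups ran from 36% to 52.3%, 52.3% to 59.2% and 59.3% to 79.7% GC. Those of the members ran from 42.1% to 47.9%, 47.9% to 54.0% and 54.2% to 63.0%. The medians of members and other genes thus do not compare genes of equal GC. In shHNRNPU against control rho was 0.26 over members, with medians of -0.34, -0.27 and -0.22, and 0.05 over the other genes. In the direct comparison it was 0.56, with medians of -0.71, -0.46 and -0.12, and 0.33 over the other genes. Of the 10 members called lower there, 8 are among the 27 lowest in GC. The values of a comparison share both libraries, so these are descriptions, and the part of GC content in the differences was not tested. With each member centred on the median of genes of like GC content (10 bins), an alternative added after seeing the data, the median of shDIS3L2 against control was 0.09, against 0.20 uncentred. That of shHNRNPU against control was -0.32 (-0.25 uncentred) and that of the direct comparison -0.37 (-0.45 uncentred).

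**Figure D3:**
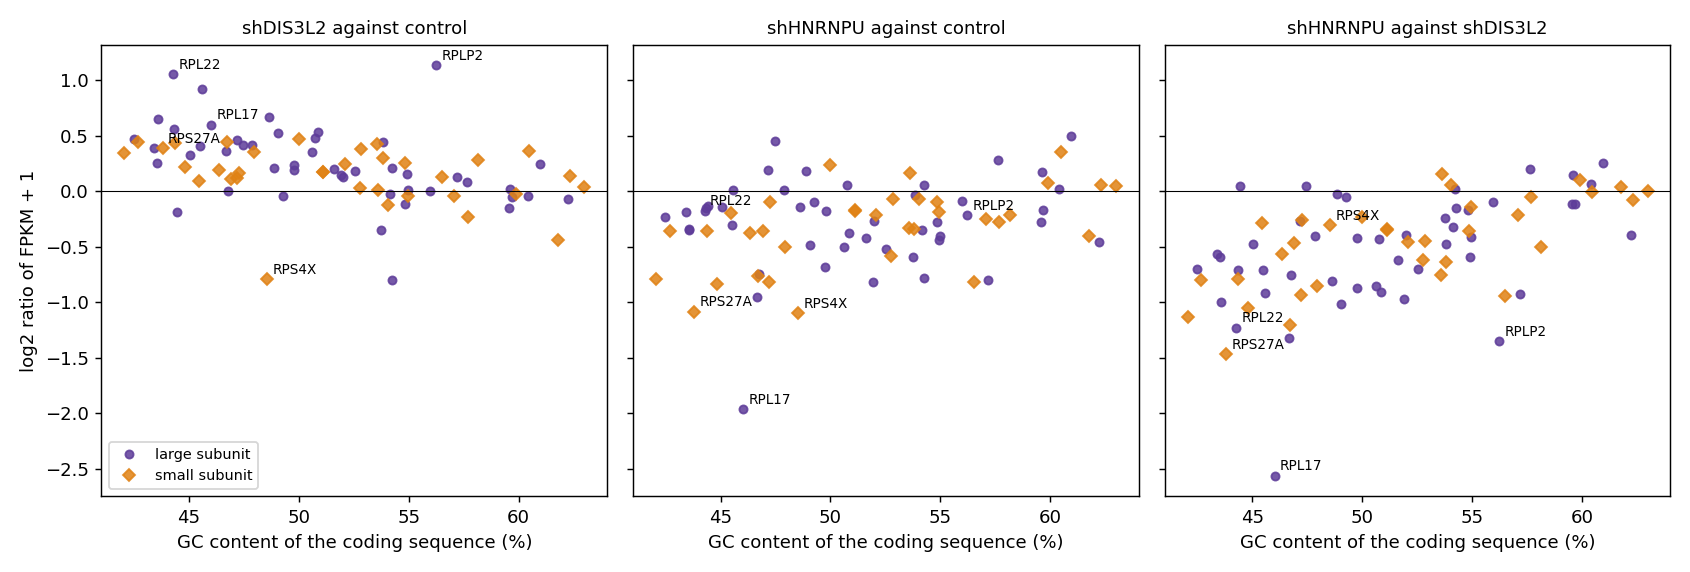
Log2 ratio of FPKM + 1 against the GC content of the coding sequence (%) for the 81 members in the 3 comparisons, with circles for the large and diamonds for the small subunit. The points slope down in shDIS3L2 against control (rho -0.53) and up in shHNRNPU against shDIS3L2 (rho 0.56), with RPL17 far below the rest in both comparisons with shHNRNPU.

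Other genes of the pathway were read from lists in the same way, and no list was tested. Of loci above 0 in both libraries, 7.41% were called higher and 5.70% lower in shDIS3L2 against control. The shares were 6.91% and 5.53% in shHNRNPU against control, and 8.65% and 8.76% in the direct comparison. Of 18 other genes with TOP messengers (translation factors and partners), 2 were called higher and 0 lower in shDIS3L2 against control: PABPC1, the poly(A)-binding protein, at 222 FPKM in control and 587 in shDIS3L2 (1.40), and the histone chaperone NAP1L1 at 156 and 325 (1.05). Their median was 0.47. In shHNRNPU against control 0 passed either way and the median was 0.03. In the direct comparison 4 were lower and 0 higher (median -0.40): NAP1L1 (-1.85), the elongation factor subunit EEF1D (-1.80), PABPC1 (-1.19) and TPT1 (-1.08). EEF1D was at 604, 1078 and 308 FPKM. RACK1, listed as GNB2L1, was at 1920 FPKM (1865 to 1974), 2340 (2264 to 2416) and 1946 (1885 to 2006), with higher levels in shDIS3L2 and overlap between control and shHNRNPU. Of the paralogs outside the name rule, RPL26L1 was at 111, 101 and 172 FPKM, RPL36AL at 285, 391 and 386 and RPL7L1 at 41.1, 35.9 and 57.7. None of them passed the size rule.

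Counts of the next lists leave out genes listed at 0 in either library, since an exact 0 can be a failed estimate. Beside them stand the shares of loci above 0, 7.41% higher and 5.70% lower in shDIS3L2 against control. For shHNRNPU against control the shares were 6.91% and 5.53%. Of the ribosome biogenesis factors, 2 of 34 were higher and 0 lower in shDIS3L2 against control (median 0.22): WDR12, of the PeBoW complex of large subunit maturation, at 20.1 and 54.2 FPKM, and GAR1, of the H/ACA particles, at 29.8 and 74.1. In shHNRNPU against control 3 of 32 were higher (HEATR1, GRWD1 and NMD3) and 1 lower (NOB1, the nuclease that ends 18S RNA maturation, at 60.4 and 25.3 FPKM), with a median of 0.17. RNA polymerase I genes had 2 of 11 higher and 0 lower against control in each knockdown, with POLR1C at 59.9, 148 and 186 FPKM. Of 12 genes that control ribosomal protein synthesis, 1 was lower in shHNRNPU against control: RPS6KB1, the S6 kinase, at 6.75 and 1.78 FPKM (-1.48). MYC, a transcription factor of ribosome genes, was at 30.6 FPKM (28.8 to 32.5), 43.3 (40.9 to 45.7) and 21.1 (19.5 to 22.6), and LARP1 at 34.5, 32.9 and 35.0 with overlapping intervals.

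Mitochondrial ribosomal protein genes, whose products form the separate ribosome of that organelle, served as the nearest family. Of 75 above 0, 5 were higher and 3 lower in shDIS3L2 against control (median 0.04), and of 73 in shHNRNPU against control 0 and 1 (median -0.04). MRPS14, the lower one, was at 104, 37.9 and 17.9 FPKM. In the direct comparison 3 of 73 were higher and 9 lower, with a median of -0.04. There 8.65% of loci above 0 were higher and 8.76% lower. The shares were 7.41% and 5.70% in shDIS3L2 and 6.91% and 5.53% in shHNRNPU against control. Of the initiation factors, 1 of 33 was higher in shDIS3L2 against control, EIF2S2 (72.2 and 181 FPKM), with a median of 0.27. In shHNRNPU against control 2 of 32 were higher (EIF5B and EIF4A2) and EIF2S1 was lower (132 and 17.0 FPKM), with a median of 0.16.

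**Figure D4:**
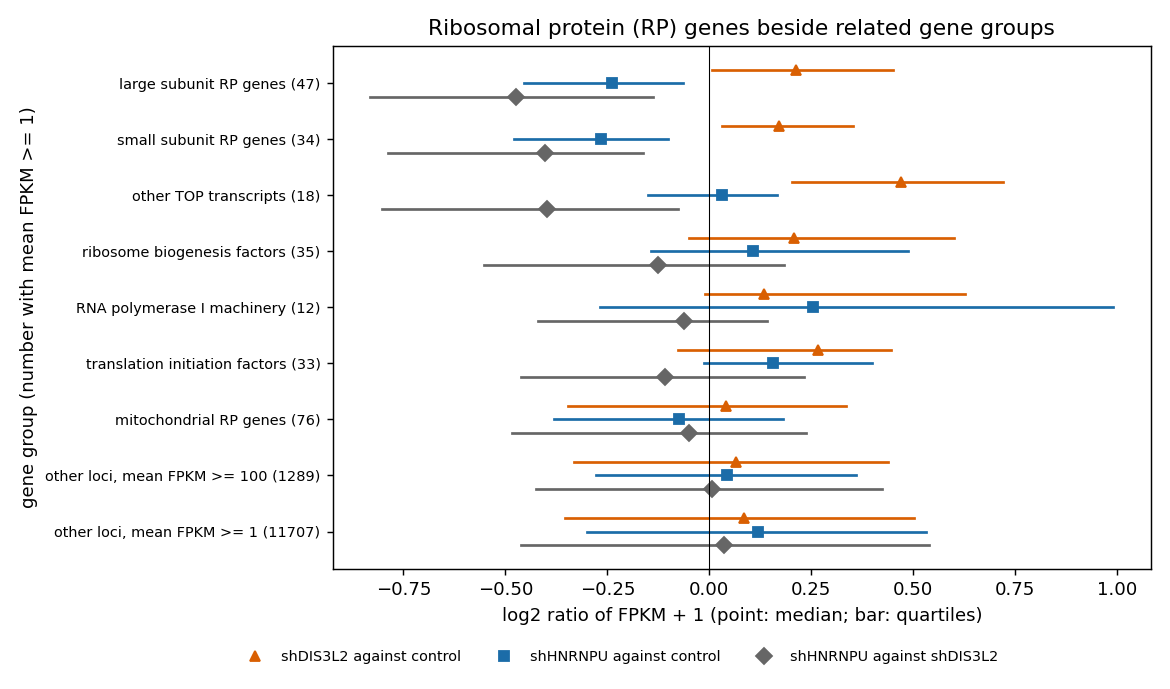
Median log2 ratio of FPKM + 1 with quartiles for both subunits, related gene lists and the other loci, in 3 comparisons (triangles, squares and diamonds), with the number of genes in brackets and genes listed at 0 kept. Both subunits lie above 0 in shDIS3L2 and below 0 in shHNRNPU against control, at 0.21 and 0.17, and at -0.24 and -0.27.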

How the data were processed

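The deposited values were FPKM per gene with lower and upper bounds and a status, per the file headers. Per the submitters' processing notes, TopHat2 2.0.12 and Cufflinks 2.2.1 were used with hg19. How the authors normalized and masked these FPKM, which annotation they used and how many hairpins there were are points not given in the sources used here. Libraries were made with an NEBNext Ultra kit, per the labels' protocols, with no statement of strand, so overlapping antisense genes cannot be told apart. Per the deposited identifiers, loci were assembled in each library separately. The control table held 0 mitochondrial rows and the others 11 and 10.

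Names were split at commas and matched to the 3 tables, and names that share a locus were counted once in background shares. Ratios are log2 of FPKM + 1, so they understate changes of low genes, and the filter was a mean of at least 1 FPKM. Genes were named by rule: members past the size rule, the 5 highest and 5 lowest ratios per comparison, the highest and lowest levels, paralog pairs and up to 3 examples per list, and other members were named after their values were seen. Some genes are not reported here. The members and lists were chosen with earlier results of these data known. Promoters came from RefSeq (GRCh38.p14) and coding sequences from GENCODE, matched by symbol for 81 of 81 tested members. The scripts (Python 3.11.15, pandas 2.3.3, numpy 2.4.6, matplotlib 3.10.9) were tested on simulated data. Alternatives were other pseudocounts, filters, folds and scaling, and leaving out joined or variably bounded loci, paralogs and genes at 0.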

Additional observations from a re-analysis of the deposited data

How the results depend on the processing

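Of the comparisons' values under the alternatives, 163 were labelled as close to those reported and 29 as moved. That label was broad. With rescaling, intervals higher in shDIS3L2 went from 52 to 38 and those lower in shHNRNPU against control from 56 to 66, both among the 163. Some alternatives could not move a member. 0 members had more than 1 locus of their name, and all 81 had a mean of at least 5 FPKM and stood above 0. The 163 is thus no measure of how firm the results are. The sign changed only for the large minus small subunit median of shHNRNPU against control, from 0.03 to -0.013 without joined loci, both near 0. With median-of-ratios rescaling, shDIS3L2 against control had a median of 0.087, 1 member called higher and 17 intervals lower, shHNRNPU against control a median of -0.41 and 4 intervals higher, and the direct comparison 3 intervals higher. At a fold of 1.5, 6 members were higher and 2 lower in shDIS3L2, 16 lower in shHNRNPU and 33 lower in the direct comparison. No share of all loci at that fold stands beside these counts, so they are not read as a result about the members. Without joined loci (46 members), shDIS3L2 had 1 called higher and intervals of 31 higher and 3 lower, shHNRNPU 30 intervals lower, and the direct comparison 6 called lower, intervals of 3 higher and 35 lower, and a large minus small subunit median of -0.22 (main -0.07). Alternatives added after seeing the data were as follows. Centring by GC content gave a median of 0.086 and 1 called higher in shDIS3L2 and 5 called lower in shHNRNPU against control. Without members joined to another protein-coding gene the direct comparison had 3 intervals higher. The summed share was 10.9% in control over named genes of at least 1 FPKM. Over loci of at least 300 bases it was 24.9%, 25.1% and 18.7%, and over loci with a protein-coding name 26.1%, 27.4% and 22.6%, in control, shDIS3L2 and shHNRNPU. The cause of these moves was not tested, except that fewer members were counted where loci were left out. No paired analysis was possible because each group has 1 library. Depth limits single members little, with a median interval of 4.24% to 4.33% to either side, but not the unknown spread between cultures.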

Other observations

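The tables list 820 pseudogenes of ribosomal protein genes apart from the members' own loci. Of these, 33, 35 and 32 stood at 1 FPKM or above in control, shDIS3L2 and shHNRNPU. Their summed level was 1726, 1695 and 1666 FPKM, which is 0.87%, 0.75% and 0.99% of the members' sum. Much of it came from few families. The 2 pseudogenes of RPL41 summed to 539, 558 and 628 FPKM, and the 19 of RPS2 to 532, 327 and 480 FPKM. The latter were lowest in shDIS3L2, where RPS2 itself stood at 4095 FPKM against 5540.4 in control. Reads of a member and its near-identical pseudogenes can be exchanged, so a pseudogene's level may be that of its parent.

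The 12 genes that control ribosomal protein synthesis had 3 intervals higher and 4 lower in shDIS3L2 against control, where 32.7% and 25.3% of all loci were. Among these 12, RPS6KB2, a second S6 kinase, was at 72.0 FPKM in control, 39.6 in shDIS3L2 and 85.3 in shHNRNPU. RHEB, the activator of mTOR, was at 60.3, 105 and 60.0 FPKM, with its highest level in shDIS3L2.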
